A study of Mus musculus with 35 samples.

Results

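Microglia mature in steps. These resident macrophages of the brain are proliferative and amoeboid after birth, and later become ramified cells that survey the tissue and divide rarely. The late step of this process was described here by setting CD45+ cells from 8-week mice against CD45+ cells from P15 mice. All libraries of these ages were used, 12 mice at P15 and 12 at 8 weeks, which are 24 of the 35 mRNA libraries of the series. The earlier step, from P6 to P15, was read from 10 P6 mice and serves to separate genes that changed after P15 from genes that continued an earlier change.

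All mice were wild-type C57BL/6 animals without treatment, and P15 and 8 weeks each held 6 females and 6 males, whereas P6 held 4 females with 6 males. The P6 female that the study set aside as an outlier was left out here too. Cells were captured from the dissociated whole brain on dishes coated with an antibody against CD45, a surface protein of all white blood cells, so monocytes, lymphocytes and border macrophages can be captured with microglia. Each mouse gave 1 library of RNA from many cells. Levels are CPM, the counts of a gene relative to the total of its library, scaled between libraries by TMM, and a level of 3 counts was between 0.0770 and 0.129 CPM at P15 and 8 weeks. Fold changes are on the log2 scale with the standard error (SE), and FDR is the adjusted p of edgeR's quasi-likelihood test over all 17612 genes tested. A gene was called when its change exceeded 2-fold at an FDR below 0.05.

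The markers of microglia were high at both ages. The mean log2 CPM of 6 microglial markers, with Tmem119, P2ry12 and Sall1 among them, was 10.9 ± 0.33 (SD, n = 12 mice) at P15 and 11.1 ± 0.14 (n = 12) at 8 weeks. Markers of other cells were present in the same libraries and moved with age. Neuron and neural progenitor markers averaged 4.51 ± 0.88 at P15 and 2.54 ± 0.52 at 8 weeks, with ranges of 2.81 to 5.60 and 1.82 to 3.43. Oligodendrocyte markers went from 6.54 ± 0.75 to 5.45 ± 0.71 and erythrocyte markers from 9.40 ± 0.43 to 7.96 ± 0.64, whereas lymphocyte markers went from 0.676 ± 0.38 to 1.80 ± 0.49. P15 male 1 stood apart, with the lowest microglial level of its age (10.3) and the highest oligodendrocyte level (8.19). In RNA from many cells, fewer cells of a type and less RNA per cell cannot be told apart.

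**Figure D1:**
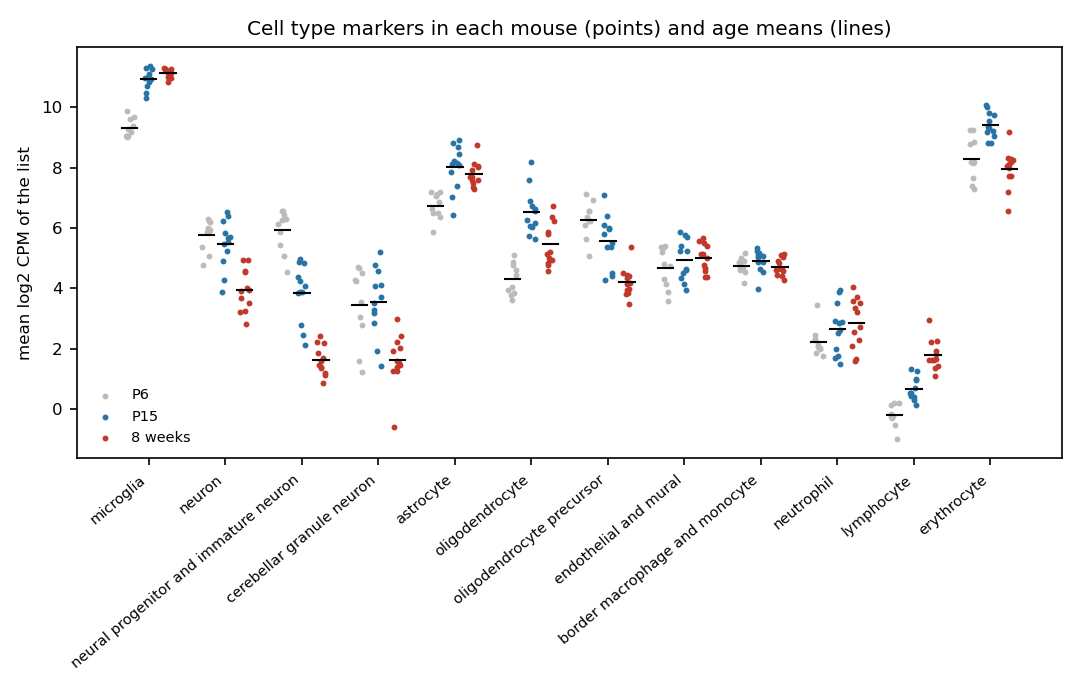
Mean log2 CPM of 12 marker lists in each mouse, with P6 in grey, P15 in blue, 8 weeks in red and a line at the mean of each age. Neuron and neural progenitor markers were lowest at 8 weeks, lymphocyte markers were highest at 8 weeks, and microglial markers were at nearly the same level at P15 (10.9) and 8 weeks (11.1).

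To follow the neural signal gene by gene, the mean level of 15 neuron and neural progenitor markers was added to the fit as a covariate. The slope of a gene on this level within ages is given below as its neural slope, in log2 units per log2 unit of marker level. A slope near 1 means that mice of the same age with more neural RNA had proportionally more of the gene. Counts of the lists with the covariate stand beside those without it where the balance of directions changed. The neural level fell with age (4.51 to 2.54), so age and the covariate overlap, and this fit cannot fully separate them. The covariate also lowered the markers of microglia themselves: 4 of the 6 were lower and none higher at an FDR below 0.05, with a median of -0.43, against none lower, 1 higher and 0.13 without it. Over all genes tested 20% were higher and 19.9% lower at an FDR below 0.05 in this fit, and the median was 0.054. Of the 64 genes taken by the naming rule that were called past 2-fold, 34 were no longer past 2-fold. The part of neural RNA in each change was not tested beyond this fit.

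Past 2-fold, more genes fell than rose in the late step. From P15 to 8 weeks 211 genes rose past 2-fold (1.2% of the 17612 tested) and 540 fell (3.07%). Without the fold threshold 4221 genes were higher (24%) and 4213 lower (23.9%). Late-step counts of the gene lists below, where no covariate is named, are read against these shares of all genes. From P6 to P15 the numbers past 2-fold were 858 (4.87%) and 855 (4.85%), and without the fold threshold 5347 (30.4%) and 5535 (31.4%). Of all genes tested, 593 (3.37%) had no overlap between the 12 P15 and the 12 8-week mice, and 112 of the 211 genes called higher and 191 of the 540 called lower were among them. Protein-coding genes made up 165 of the 211 and 500 of the 540. Without P15 male 1 there were 175 genes higher and 474 lower. In the fit with the neural covariate the split turned, to 378 higher and 207 lower, and limma-voom with the same fold threshold called 137 and 261.

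The called genes were sorted by what they did from P6 to P15. Of the 211 that rose, 40 had already risen past 2-fold, 60 had risen at an FDR below 0.05 without passing 2-fold, 2 had fallen past 2-fold, 23 had fallen by less at that FDR, and 86 had not reached it in either direction. Of the 540 that fell, 269 had already fallen past 2-fold, 142 had fallen by less, 21 had risen past 2-fold, 26 had risen by less, and 82 had not reached the FDR. A missed threshold does not show a flat early step. A gene was therefore taken as changing only after P15 when the 95% interval of its early change lay within 1.5-fold in both directions, which left 11 late rises and 6 late falls. With an interval within 2-fold there were 48 and 51. Since the P15 libraries enter both steps, these counts are a description with no test. The difference between the steps passed an FDR of 0.05 in 5883 genes (33.4%).

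**Figure D2:**
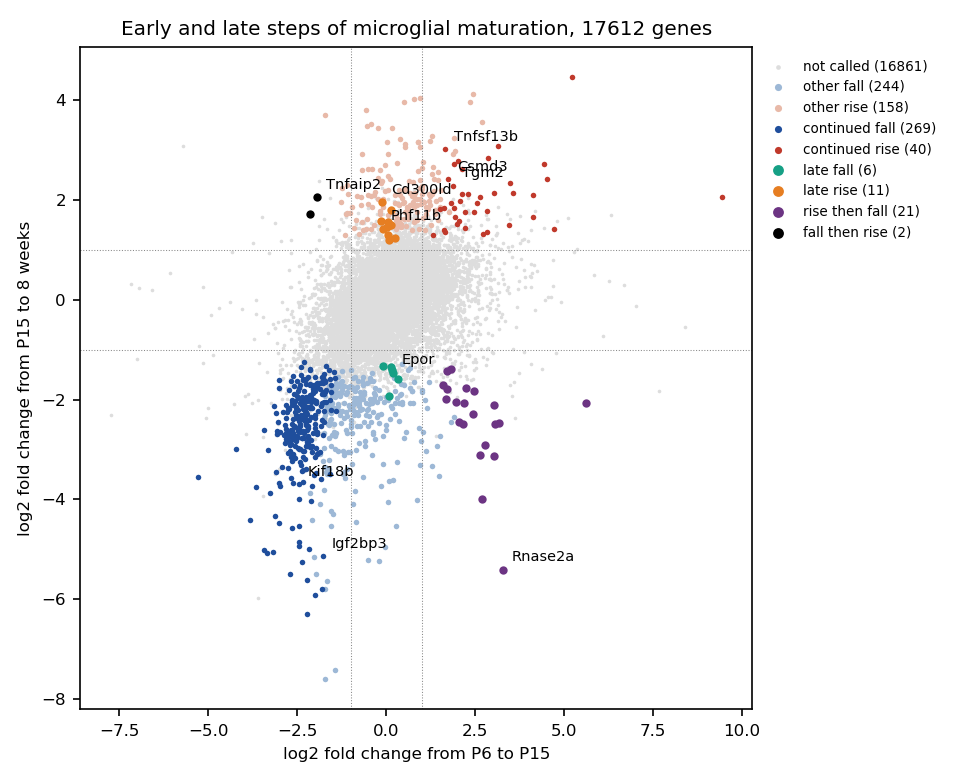
Log2 fold change from P6 to P15 (x axis) and from P15 to 8 weeks (y axis) of the 17612 genes tested, coloured by class, with dotted lines at 2-fold. The 269 genes that fell in both steps fill the lower left, the 40 that rose in both steps the upper right, and the 11 late rises and 6 late falls lie near an early change of 0.

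Genes that rose in both steps are represented by those with the largest late changes that the naming rule took. Tnfsf13b (chr8:10006467-10039072 on GRCm38), which encodes the B cell survival factor BAFF, had lowest, median and highest levels of 12.4, 17.4 and 25.7 CPM at 8 weeks, after 0.506, 2.23 and 3.92 CPM at P15 and 0.334, 0.631 and 1.52 CPM at P6. The 8-week mice lay above every younger mouse, and the late change was 3.03 ± 0.22 (FDR = 6.2e-12), larger than the early change of 1.66 by 1.37 (FDR = 0.0114). For Tgm2, a transglutaminase that cross-links proteins, the levels were 28.3, 33.5 and 43.8 CPM at P15 and 127, 159 and 231 CPM at 8 weeks. This change of 2.29 ± 0.10 (FDR = 2.81e-17) followed an early rise of 1.89, and the ages did not overlap. Csmd3, a large membrane protein with complement control modules, went from 2.77, 11.8 and 23.3 CPM to 31.3, 71.9 and 98.7 CPM. Its late change was 2.42 ± 0.18 (FDR = 1.25e-11).

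Secreted enzymes were also in this class. The secreted protease Klk8 rose by 1.92 and then by 1.83 ± 0.16 (FDR = 8.87e-11). Pla2g2d, a secreted phospholipase of immune tissue, reached a mean of 5.97 ± 1.08 CPM after 1.74 ± 0.82 CPM at P15 (1.83 ± 0.21, FDR = 3.58e-08). In both genes the difference between the steps was small beside its error (FDR = 0.851 for Klk8 and 0.738 for Pla2g2d). All 40 genes of this class kept their direction at an FDR below 0.05 with the neural covariate, but only 14 of the 40 were still past 2-fold in that fit. Klk8 (1.10) and Pla2g2d (1.25) were among those that were not. A neural slope above 0.5 was found in 5 of the class.

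Genes taken as changing only after P15 had an early change bounded within 1.5-fold, which is not the same as none. In the early step 1 of the 11 late rises and 1 of the 6 late falls had risen at an FDR below 0.05. Fam129a, which encodes a stress-related cytoplasmic protein also known as Niban, had 17.6, 23.1 and 32.7 CPM at P6 and 11.9, 23.9 and 37.5 CPM at P15, lowest, median and highest. At 8 weeks it had 53, 73.9 and 88.6 CPM, a change of 1.56 ± 0.13 (FDR = 9.45e-11) after an early change whose 95% interval was -0.24 to 0.35. All 12 adult mice lay above every P15 mouse. Phf11b, an interferon-stimulated gene (chr14:59320964-59341351), stayed between 4.25 and 9.84 CPM at P6 and between 2.53 and 9.2 CPM at P15. It then rose to between 12.6 and 19.9 CPM (1.43 ± 0.17, FDR = 4.42e-08). Its call past 2-fold was lost on leaving out P15 male 1 and in all for 18 of the 28 mice left out in turn, at an unchanged direction. Given the neural covariate its change was 0.47 (FDR = 0.0127), and that of Fam129a was 0.82 (FDR = 5.12e-05).

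Cd300ld, an activating receptor of the CD300 family of myeloid cells, had a median of 2.84 CPM in the P6 mice, 2.52 CPM in the P15 mice and 8.93 CPM in the 8-week mice (1.95 ± 0.17, FDR = 2.62e-10). The other late rises named by the rule were Zc3h6 (1.58 ± 0.16), a zinc finger protein, Tcim (1.5 ± 0.12), and Osbpl3 (1.31 ± 0.10), an oxysterol-binding protein homologue. The naming rule took these genes only because the 8-week mice did not overlap the P15 mice. H2-Q7, an MHC class I gene with near-identical neighbours that can share its reads, was also in the class (1.46 ± 0.18), and its call was lost for 21 of the 28 mice left out in turn. The remaining members, Anxa9, Tspan13, Zrsr1 and E230013L22Rik, are named here after their values were seen. Leaving out P15 female 1 or 8 weeks female 3 reduced the 11 late rises to 7 each, so membership of this class depended on single mice. All 11 kept their direction at an FDR below 0.05 with the neural covariate, but only 1 was still past 2-fold. The 7 late rises named by the rule had all lost that call, with values of 1.42 for Cd300ld, 1.47 for Zc3h6, 1.29 for Tcim and 1.14 for Osbpl3. Phf11b, H2-Q7, Zc3h6 and Osbpl3 were not past 2-fold with limma-voom, and of these all but Zc3h6 were not with DESeq2.

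The class of late falls held 6 genes. Nid2, a basement membrane glycoprotein (chr14:19751265-19811787), had 92.5, 115 and 173 CPM at P6, 86.9, 133 and 169 CPM at P15 and then 37.7, 51 and 65.5 CPM in adults. Every 8-week mouse was below every P15 mouse, and the late change was -1.36 ± 0.11 (FDR = 2.94e-11) against an early interval of -0.11 to 0.37. Epor, the erythropoietin receptor, went from 8.84, 15.1 and 20.3 CPM at P15 to 3.51, 5.41 and 8.41 CPM (-1.46 ± 0.13, FDR = 2.73e-10). Erythrocyte markers fell over the same step, so the values stand side by side, and their part in the change of Epor was not tested. Bmp1, a procollagen-processing protease, changed by -1.59 ± 0.12 (FDR = 1.1e-11). Its level in P15 male 1 was 131 CPM, against 49.0 to 71.2 CPM in the other P15 males. The other members were Slc43a1 (-1.33 ± 0.11), an amino acid transporter, Smim10l2a (-1.41 ± 0.11) and Dmrtb1, the last named after its values were seen. With the neural covariate all 6 late falls kept their direction at an FDR below 0.05, and all but Bmp1 were still past 2-fold. With limma-voom, however, Nid2, Epor, Slc43a1 and Smim10l2a were not past 2-fold (FDR of the 2-fold test from 0.0702 to 0.217), and with DESeq2 neither were Nid2 (FDR = 0.0529) and Slc43a1 (FDR = 0.0846).

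Few genes turned around at P15 past 2-fold in both steps. Another 23 called rises and 26 called falls had an opposite early change at an FDR below 0.05 without passing 2-fold. Tnfaip2, a gene induced by tumour necrosis factor, fell and then rose: it had 25.7, 36.2 and 57.1 CPM at 8 weeks, after 6.61, 8.13 and 14.1 CPM at P15 and 19, 38.7 and 52 CPM at P6. Its late change of 2.06 ± 0.16 (FDR = 1.91e-11) was of about the size of the preceding fall, -1.94, so that adult levels overlapped those of P6. Cd28, named after its values were seen, was the other of the 2 genes of this class. Of the 21 genes that rose and then fell, Rnase2a, a member of the eosinophil ribonuclease family with close paralogs, had 0.364, 0.923 and 2.78 CPM in the P6 mice, 1.92, 10.5 and 16.5 CPM in the P15 mice and 0.0364, 0.227 and 0.473 CPM in the 8-week mice. The P15 mice were above all others except that P15 male 1 was below the highest P6 mouse. At 1 to 15 counts in the 8-week mice, its late change was -5.41 ± 0.37 (FDR = 8.63e-13).

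Tmem44, a membrane protein, and Hs3st2, a heparan sulfate sulfotransferase, also peaked at P15. Tmem44 had a mean of 55.9 ± 7.54 CPM (n = 10), 180.0 ± 22.6 CPM (n = 12) and 66.9 ± 6.6 CPM (n = 12) at the 3 ages, with a late change of -1.43 ± 0.07 (FDR = 2.13e-16). Hs3st2 changed by 2.17 and then by -2.07 ± 0.24 (FDR = 4.52e-08). The chemokine gene Ccl8 was in this class, with 3.39, 11.3 and 18.1 CPM at P15 and 0.751, 1.59 and 5.14 CPM at 8 weeks (-2.49 ± 0.27, FDR = 2.29e-08), and so was Hif3a, a member of the hypoxia-inducible factor family that also answers to glucocorticoids (-1.71 ± 0.20, FDR = 4.24e-08). Of the 21 genes of the class 12 had a neural slope above 0.5 (57.1%, against 18.7% of all genes tested), with a median of 0.74. In the fit with the covariate 10 of the 21 fell at an FDR below 0.05 and 5 past 2-fold. Hs3st2 (-1.70) and Hif3a (-1.10) were then no longer past 2-fold, and Hif3a was not with limma-voom.

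**Figure D3:**
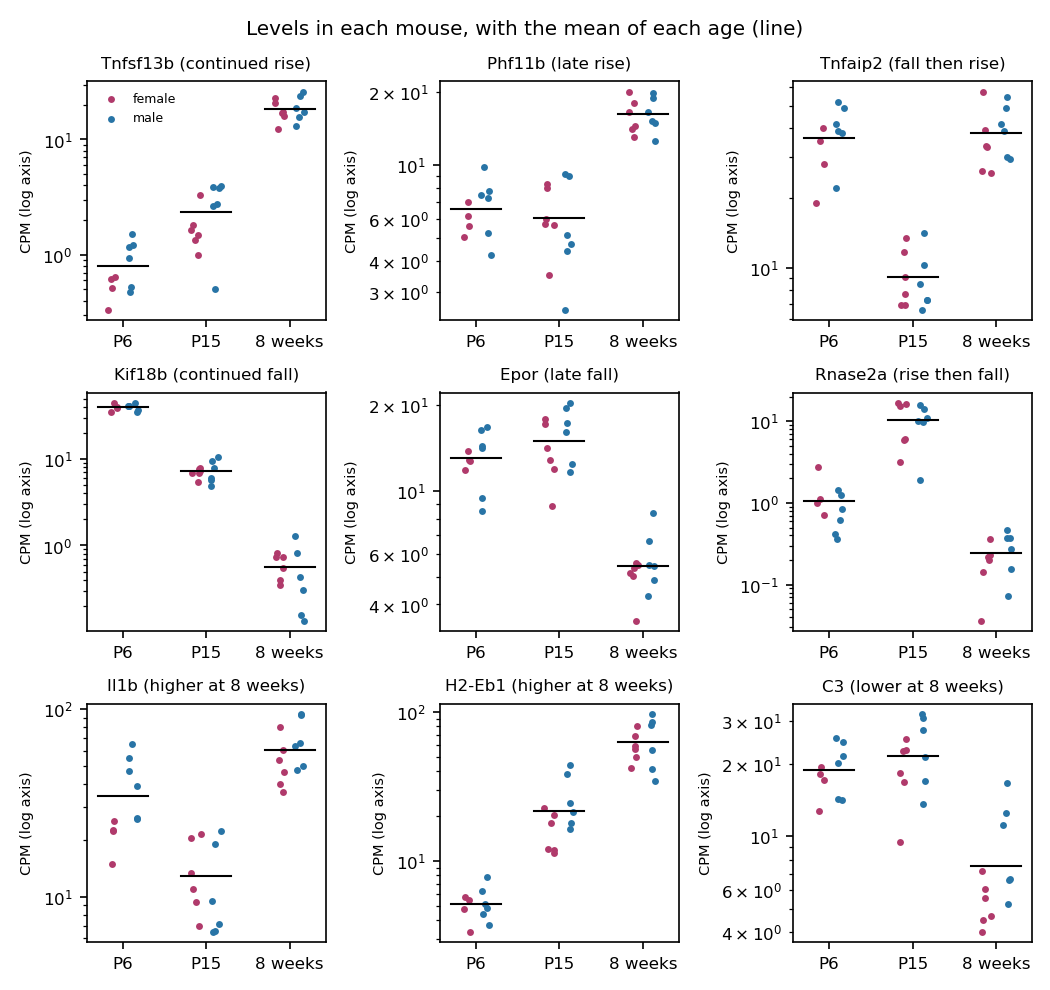
CPM of 9 genes in each mouse at P6, P15 and 8 weeks on log axes, females in magenta and males in blue, with a line at the mean of the age. The 8-week mice lie apart from the P15 mice for Tnfsf13b, Phf11b, Tnfaip2, Kif18b, Epor, Rnase2a and Il1b, whereas H2-Eb1 and C3 differ in mean with some overlap.

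Genes of cell division fell in both steps. Mitotic genes encode the cyclins, kinesins and kinetochore proteins that carry a cell through division, and are transcribed late in the cycle. Of 70 mitosis genes tested, 56 fell past 2-fold and 68 fell at an FDR below 0.05, with none higher and a median late change of -2.38, beside a median of 0.018 over all genes tested. In the early step 68 of the 70 had fallen past 2-fold. Kif18b, a microtubule-depolymerising kinesin, had 34.6, 40.4 and 44.1 CPM at P6, 4.82, 7.11 and 10.5 CPM at P15 and then 0.135, 0.488 and 1.28 CPM in adults. The 3 ages did not overlap, and the late change was -3.69 ± 0.21 (FDR = 7.38e-15), larger than the early change of -2.46 by -1.23 (FDR = 0.00453).

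Ccnb1, the mitotic cyclin B1, went from 5.94, 8.38 and 10.9 CPM at P15 to 0.204, 0.766 and 1.37 CPM (-3.34 ± 0.18, FDR = 2.56e-15), and Ccnb2 from 5.48, 8.36 and 13.4 CPM to 0.478, 0.96 and 1.86 CPM (-3.09 ± 0.17, FDR = 4e-15). Birc5, the chromosomal passenger survivin, changed by -3.12 ± 0.18, Pimreg by -3.43 ± 0.20, the kinetochore gene Spc24 by -3.15 ± 0.21 and the phosphatase gene Cdc25c by -3.37 ± 0.26. In each of these genes all 8-week mice were below all P15 mice. Espl1, the separase gene, was an exception within the list, with a mean of 42 ± 7.72 CPM (n = 12) at P15 against 31.9 ± 6.41 CPM (n = 12) in adults (-0.39 ± 0.10, FDR = 0.00204). The median neural slope of the list was 0.035, and 65 of the 70 genes fell at an FDR below 0.05 with the neural covariate, with a median of -2.25.

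The genes of DNA replication, which unwind and copy DNA in S phase, fell less. Of 48 tested, 15 fell past 2-fold and 40 at an FDR below 0.05, none rose, and the median was -0.66, although 39 had fallen past 2-fold in the early step. Rrm2, the ribonucleotide reductase subunit that supplies deoxynucleotides, went from 8.29, 13.5 and 16.2 CPM to 1.12, 2.11 and 2.74 CPM (-2.67 ± 0.12, FDR = 2.16e-17), and Uhrf1, which passes DNA methylation to the new strand, from 16.3, 18.7 and 27.2 CPM to 1.54, 3.43 and 5.93 CPM (-2.51 ± 0.14, FDR = 2.4e-15). Ticrr (-2.60 ± 0.16), Mcm10 (-2.59 ± 0.15), Tk1 (-2.26 ± 0.16) and Cdc6 (-2.15 ± 0.17) also fell past 2-fold. Pcna, the sliding clamp, had 74.1, 123 and 150.4 CPM at P15 and 86.2, 122 and 132 CPM at 8 weeks, a difference of -0.05 ± 0.08 with a 95% interval of -0.23 to 0.12 (FDR = 0.605). The helicase gene Mcm3 fell by a small amount (-0.29 ± 0.10, FDR = 0.0154).

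The promoters of the mitosis genes are shown because these genes fell together. In RefSeq windows on GRCm38.p6, from 250 bases before to 50 after the start, 56 of the 70 genes had 1 or more windows. The letters TTTGAA of the cell cycle genes homology region, searched on both strands, were in 65.6% of their 61 windows and in 17.9% of all 32851 windows. CCAAT, on both strands, was in 72.1% of the mitosis windows and in 37.4% of all windows, and both motifs together in 52.5% and 6.95%. In 44 windows of 38 DNA replication genes TTTGAA was in 11.4% and CCAAT in 56.8%. A match of letters describes the window and is not a bound site. The stretches from 100 bases before to 50 after the start of Kif18b (chr11:102925075-102925224, minus strand) and Ccnb2 (chr9:70421505-70421654, minus strand) follow, with CCAAT and TTTGAA in capitals. TTTGAA begins 4 bases after the start of Kif18b, counting the start as 1, and 5 in Ccnb2.
Kif18b: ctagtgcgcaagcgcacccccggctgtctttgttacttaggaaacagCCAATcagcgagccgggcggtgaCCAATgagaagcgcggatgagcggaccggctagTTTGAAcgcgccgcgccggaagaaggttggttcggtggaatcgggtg
Ccnb2: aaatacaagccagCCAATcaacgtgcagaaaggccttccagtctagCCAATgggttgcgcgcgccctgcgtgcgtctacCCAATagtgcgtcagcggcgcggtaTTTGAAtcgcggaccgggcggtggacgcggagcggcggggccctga

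Of the 21 fetal and imprinted growth genes tested, 10 fell and 3 rose at an FDR below 0.05 and 4 fell past 2-fold, with a median of -0.42, whereas with the neural covariate 5 fell and 8 rose, with a median of 0.62. Igf2bp3, an RNA-binding protein of fetal tissue (chr6:49085223-49214957), had 0.192, 0.533 and 1.26 CPM at 8 weeks, after 9.11, 19.8 and 24.7 CPM at P15 and 57.2, 59.2 and 97.7 CPM at P6. The ages did not overlap, and the late change of -5.14 ± 0.17 (FDR = 1.52e-20) exceeded the early change of -1.76 by -3.38 (FDR = 1.39e-11). In the fit with the neural covariate its change was -5.62. H19, an imprinted noncoding RNA, had 7 to 104 counts in the P15 mice and 0 to 4 counts in the 8-week mice (-5.02 ± 0.49, FDR = 3.04e-12). Its imprinted neighbour Igf2, a growth factor, had 1.51, 3.07 and 5.15 CPM at P15 and 0.406, 0.83 and 1.34 CPM at 8 weeks (-2.05 ± 0.19, FDR = 5.95e-10), and its change with the covariate was -1.75, no longer past 2-fold. Mest changed by -2.17 ± 0.31 (FDR = 1.83e-06), but its value was -0.08 (FDR = 0.826) with the neural covariate, at a neural slope of 1.04, and it was not past 2-fold with limma-voom. Meg3, the most abundant member not called, had a mean of 97 ± 68.7 CPM (n = 12) and 122 ± 84.2 CPM (n = 12) (FDR = 0.333).

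Other genes at the head of the continued falls are transcription factors of developing neurons. Nhlh2 went from a mean of 7.69 ± 6.77 CPM (n = 12) to 0.153 ± 0.154 CPM (n = 12) (-5.49 ± 0.74, FDR = 1e-07), Barhl1 changed by -5.25 ± 0.74 (FDR = 8.05e-07) and Insm1 by -4.34 ± 0.51 (FDR = 6.59e-08). The matrix gene Mfap4 changed by -4.47 ± 0.55 (FDR = 1.19e-07). Their neural slopes were 1.71, 1.83, 1.56 and 1.32. Given the neural covariate the values were -1.87 (FDR = 0.0229), -1.42 (FDR = 0.13), -0.91 (FDR = 0.0941) and -1.74 (FDR = 0.0185), and none of the 4 was past 2-fold in that fit or with limma-voom. Over the 540 genes called lower, 54.3% had a neural slope above 0.5, against 18.7% of all genes tested and 7.11% of the genes called higher. With the covariate 285 of the 540 fell and 197 of the 211 rose at an FDR below 0.05.

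**Figure D4:**
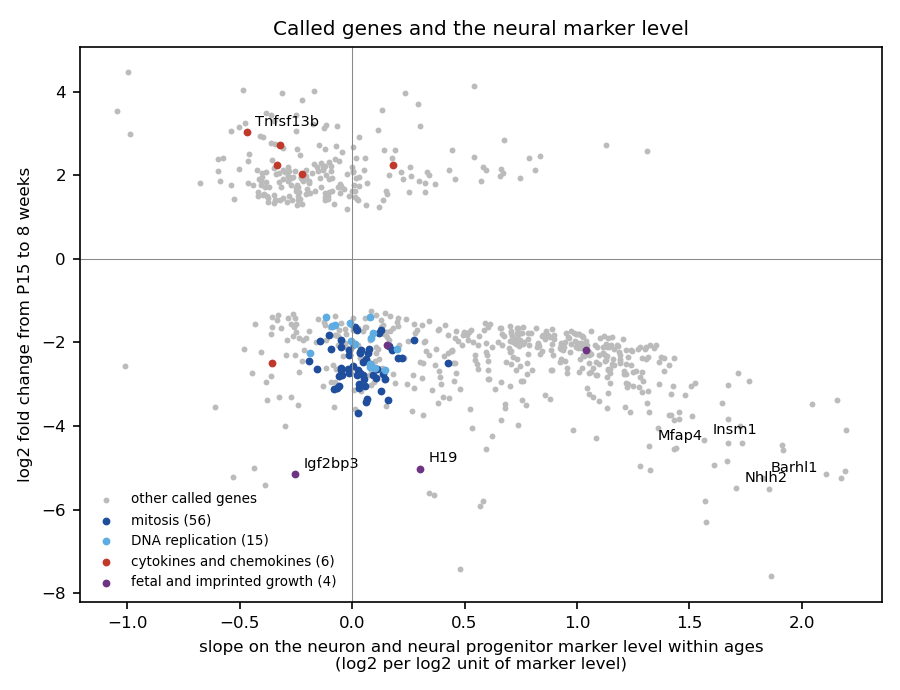
Neural slope of each called gene within ages (x axis, log2 per log2 unit of marker level) and its log2 fold change from P15 to 8 weeks (y axis), with 4 gene lists coloured. The 56 called mitosis genes lie near a slope of 0, whereas Nhlh2, Barhl1, Insm1 and Mfap4 lie between 1.32 and 1.83.

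Several cytokine genes rose after P15. Of 35 cytokine and chemokine genes tested, 5 rose past 2-fold (Tnfsf13b among them), 1 fell past 2-fold (Ccl8), and 16 rose and 5 fell at an FDR below 0.05. Past 2-fold these are 14.3% and 2.86%, beside 1.2% and 3.07% of all genes. At that FDR they are 45.7% and 14.3%, beside 24% and 23.9%. Il1b, the gene of interleukin 1 beta (chr2:129364570-129371139), had 15, 26.2 and 65.3 CPM in the P6 mice, 6.51, 10.3 and 22.4 CPM in the P15 mice and 36.3, 57.2 and 93.8 CPM in the 8-week mice. Every adult mouse was above every P15 mouse, and the late change was 2.23 ± 0.22 (FDR = 2.54e-09) after an early change of -1.24 (FDR = 2.77e-05). Il6, the gene of interleukin 6, had 0.27, 1.16 and 1.87 CPM at P15 and 2.97, 5.61 and 7.48 CPM at 8 weeks (2.24 ± 0.22, FDR = 2.7e-09), also without overlap. Tnfsf8, the CD30 ligand, changed by 2.72 ± 0.26 (FDR = 8.71e-10) and Ccl5, a chemokine of T cells and natural killer cells, by 2.02 ± 0.29 (FDR = 1.95e-06). Ccl5 was not past 2-fold with the neural covariate or with limma-voom (FDR of the 2-fold test, 0.374 and 0.0756).

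The abundant chemokine genes Ccl3 and Ccl4 went back up. Ccl3 had a median of 664 CPM at P6, 338 CPM at P15 and then 702 CPM in adults, and Ccl4 a median of 497, 241 and 536 CPM. They rose by 1.10 ± 0.15 (FDR = 8.81e-07) and 1.01 ± 0.14 (FDR = 7.17e-07), below the 2-fold test, after early changes of -1.12 and -0.85. With the neural covariate the values were 0.50 (FDR = 0.0464) and 0.43 (FDR = 0.0507), and for Il1b 1.64 (FDR = 0.000106), no longer past 2-fold. Over the 35 cytokine and chemokine genes 10 rose and 11 fell in that fit, against 16 and 5 without the covariate. Among receptors, 20 of 41 rose and 2 fell at an FDR below 0.05, with a median of 0.28, whereas with the covariate 4 rose and 21 fell, with a median of -0.26. Without the covariate Il18r1 (2.04 ± 0.37) and Ccr2 (1.60 ± 0.20) passed 2-fold, and neither did with it, with limma-voom or with DESeq2. Ccr2 is a defining marker of monocytes, with 1.45, 4.63 and 6.34 CPM at P15 and 6.97, 12.9 and 20.3 CPM at 8 weeks. Il18r1 had 0 to 16 counts at P15 and was no longer past 2-fold without 8 weeks male 5, and its change with the covariate was 1.36 (FDR = 0.0762).

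Markers of other white blood cells moved over the same step. Of 11 lymphocyte markers 7 rose at an FDR below 0.05 and 4 past 2-fold, and their mean level overlapped between the ages, with 0.152 to 1.32 log2 CPM at P15 and 1.08 to 2.94 at 8 weeks. The genes that rose were of T and natural killer cells, and the B cell markers Cd79a and Ms4a1 did not pass an FDR of 0.05. No lymphocyte or monocyte marker was at 0 counts in any P15 or 8-week mouse. Gzma, granzyme A of cytotoxic cells, had 0.218, 0.428 and 1.05 CPM at P15 and 2, 4.17 and 15.3 CPM at 8 weeks (3.22 ± 0.28, FDR = 2.98e-10). Of 9 border macrophage and monocyte markers, 2 rose (Ccr2, and the monocyte antigen gene Ly6c2 at an FDR of 3.92e-08) and 6 fell at an FDR below 0.05. Lyve1, which marks border macrophages, changed by -1.75 ± 0.15 (FDR = 1.14e-10), Pf4 by -1.23 ± 0.13 and Mrc1 by -0.72 ± 0.17. Neutrophil markers averaged 2.67 ± 0.83 (n = 12) at P15 and 2.86 ± 0.82 (n = 12) at 8 weeks. Of the 6 tested, 3 rose and 2 fell at an FDR below 0.05, with late changes from -1.58 to 1.52. Among those that rose S100a8 changed by 1.48 ± 0.29 (FDR = 0.000133) and S100a9 by 1.52 ± 0.28 (FDR = 6.69e-05). The pooled neutrophil mean hides a split by sex in adults, where females had 1.60 to 2.71 log2 CPM and males 3.23 to 4.03. At P15 the sexes overlapped, with 1.48 to 3.93 in females and 1.98 to 3.89 in males. The part of these cells in the cytokine changes was not tested.

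Antigen presentation genes rose in both steps. MHC class II molecules display peptides to helper T cells and are switched on by the coactivator Ciita. Of 10 class II genes tested 9 rose at an FDR below 0.05, 2 of them past 2-fold, with a median of 1.04, and 9 of the 10 had already risen past 2-fold in the early step. H2-Eb1 (chr17:34305867-34316674) had 34.4, 57.8 and 96.2 CPM at 8 weeks, after 11.3, 19.2 and 43.6 CPM at P15 and 3.35, 4.97 and 7.82 CPM at P6 (1.59 ± 0.18, FDR = 3.27e-08), and H2-Aa had 18, 30.4 and 63.3 and then 58.3, 82.2 and 161 CPM (1.52 ± 0.17, FDR = 2.35e-08). The highest P15 mice overlapped the lowest adults in both genes. Ciita changed by 1.59 ± 0.26 (FDR = 1.08e-05), H2-Ab1 by 1.35 ± 0.16 (FDR = 8.3e-08) and the invariant chain gene Cd74 by 0.86 ± 0.15 (FDR = 2.51e-05), without passing the 2-fold test. In the fit with the neural covariate 5 of the 10 were higher and 1 lower, and the median was 0.39, with H2-Eb1 at 0.79 and H2-Aa at 0.77, no longer past 2-fold. H2-Aa was not past 2-fold with limma-voom or DESeq2 either.

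The Y box, a CCAAT motif read in reverse, is known from the promoters of class II genes, and the members that passed 2-fold are shown for it. Of the 10 genes tested 7 had 8 RefSeq windows, and CTGATTGG, on both strands, was in 37.5% of them against 4.1% of all 32851 windows. It contains CCAAT on the other strand, which was in 87.5% of the class II windows. The stretches from 100 bases before to 50 after the start of H2-Aa (chr17:34287774-34287923, minus strand) and H2-Eb1 (chr17:34305767-34305916, plus strand) are printed with CTGATTGG in capitals.
H2-Aa: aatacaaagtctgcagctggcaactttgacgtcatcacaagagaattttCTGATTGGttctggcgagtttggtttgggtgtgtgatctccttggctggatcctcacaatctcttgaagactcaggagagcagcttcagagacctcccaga
H2-Eb1: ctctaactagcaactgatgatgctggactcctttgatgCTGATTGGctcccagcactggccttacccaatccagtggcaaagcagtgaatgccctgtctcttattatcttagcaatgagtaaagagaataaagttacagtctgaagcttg

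MHC class I genes, which display peptides to cytotoxic T cells, rose by smaller amounts. Of 21 tested 19 rose and none fell at an FDR below 0.05, 1 of them past 2-fold (H2-Q7), with a median of 0.42. Nlrc5, the class I coactivator, had 2.6, 6.2 and 10.3 CPM at P15 and 9.77, 12.3 and 17 CPM at 8 weeks (FDR = 4.44e-06), and B2m, the shared light chain, changed by 0.37 ± 0.13 (FDR = 0.0169). Of 53 interferon-stimulated genes 29 rose and 4 fell at an FDR below 0.05, with Phf11b alone past 2-fold and a median of 0.38. Without P15 male 1 there were 21 that rose and none past 2-fold. Samhd1, a nucleotide hydrolase that restricts viruses, changed by 0.39 ± 0.10 (FDR = 0.00269) and Cxcl10 by 0.72 ± 0.18 (FDR = 0.00165), the latter after an early change of -2.34. With the neural covariate 2 class I genes rose and 2 fell, 2 interferon-stimulated genes rose and 15 fell, and the medians were -0.081 and -0.19, beside 20% of all genes higher and 19.9% lower in that fit.

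Innate sensing and immediate early genes also rose more often than they fell before the covariate was added. Of 38 pattern recognition genes 24 rose and 1 fell at an FDR below 0.05 (3 and 13 with the covariate). Irak3, an inhibitor of Toll-like receptor signalling, had 1.01, 1.46 and 2.61 CPM at P15 and 4.02, 5.1 and 7.14 CPM at 8 weeks (1.57 ± 0.15, FDR = 1.47e-09; 1.33 with the covariate), and Casp4, an inflammatory caspase, changed by 1.42 ± 0.16 (FDR = 3.86e-08), although its call past 2-fold was lost for 18 of the 28 mice left out in turn. That call was also lost with the covariate, with limma-voom, with DESeq2, under both other filters on low counts and in the fit of age without sex, and the call of Irak3 was lost with the covariate. Both had fallen in the early step (log2 changes of -0.67 and -0.44) and neither overlapped between P15 and 8 weeks. Of 31 immediate early genes, which also answer to tissue dissociation, 18 rose and 1 fell, none past 2-fold, with a median of 0.52. With the covariate 6 rose and 10 fell, with a median of -0.084. Fos changed by 0.46 ± 0.18 (FDR = 0.0367), and -0.53 with the covariate (FDR = 0.039).

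Most identity genes of microglia rose from P6 to P15. Of 39 homeostatic genes 37 rose at an FDR below 0.05 from P6 to P15, 22 of them past 2-fold, beside 30.4% of all genes at that FDR. Other markers moved over this early step too, neural progenitor markers from 5.92 ± 0.69 to 3.86 ± 0.94 log2 CPM and oligodendrocyte markers from 4.30 ± 0.52 to 6.54 ± 0.75, and their part in the early rises was not tested. From P15 to 8 weeks 16 rose and 6 fell, with a median of 0.22. Without P15 male 1 these values were 13, 6 and 0.12. Upk1b passed 2-fold, with 0.419, 1.09 and 2.18 CPM in the P6 mice, 21.2, 28.8 and 44.7 CPM in the P15 mice and 61.7, 80.5 and 108 CPM in the 8-week mice (1.41 ± 0.15, FDR = 1.09e-08). That call was lost for 11 of the 28 mice left out in turn, with all 35 mice, under both other filters on low counts and with DESeq2. For Tmem119 the late difference was 0.14 ± 0.12 (95% interval -0.11 to 0.39, FDR = 0.341) after 2.95 in the early step, and for P2ry12, the receptor that guides processes to ATP, it was 0.06 ± 0.15 (95% interval -0.25 to 0.37, FDR = 0.758) after 1.80. The difference between the steps was -2.81 (FDR = 1.13e-11) and -1.73 (FDR = 5.53e-06). Csf1r, the receptor for the survival factors of microglia, had a late difference near 0 (95% interval -0.25 to 0.24, FDR = 0.981), and Cst3, cystatin C, rose by 0.61 ± 0.12 (FDR = 0.000209). With the covariate 1 homeostatic gene rose and 23 fell, with a median of -0.41, and Upk1b was at 0.75.

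Among 34 microglial transcription factor genes 19 rose and 2 fell at an FDR below 0.05. Klf6, a zinc finger factor, changed by -0.64 and then by 1.09 ± 0.14 (FDR = 2.13e-07). Tfec, a member of the MiT family found in macrophages, fell in both steps, with a late change of -1.56 ± 0.16 (FDR = 2.62e-09) from 3.04, 7.7 and 10.4 CPM to 1.64, 2.52 and 3.56 CPM, past 2-fold with edgeR but not with limma-voom (FDR of the 2-fold test = 0.125). With the covariate 4 of the 34 rose and 13 fell. Of 34 DNA methylation and Polycomb genes, Cbx7, a Polycomb reader, rose past 2-fold, from a mean of 16.6 ± 2.39 CPM (n = 12) to 44 ± 4.27 CPM (n = 12) (1.41 ± 0.08, FDR = 7.29e-15), no overlap and an early rise of 1.08, and with the covariate its change was 1.17, no longer past 2-fold. The de novo methyltransferase gene Dnmt3a changed by -0.37 ± 0.08 (FDR = 0.000243).

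Of the complement genes, C3 and Cfb fell past 2-fold. C3 is the protein on which all routes of complement converge, and Cfb makes the alternative convertase with it. C3 had 4.02, 6.3 and 16.6 CPM at 8 weeks, after 9.5, 22 and 32 CPM at P15 and 12.7, 18.7 and 25.6 CPM at P6, a late change of -1.57 ± 0.18 (FDR = 3.78e-08) with some overlap. Cfb had 9 to 35 counts in the P15 mice and 0 to 5 counts in the 8-week mice (-3.30 ± 0.38, FDR = 7.22e-09), without overlap. In both genes the early change was small beside its error (FDR = 0.323 and 0.789), and the late fall was -2.38 and -3.89 with the neural covariate. With limma-voom C3 was not past 2-fold (FDR of the 2-fold test = 0.131). C1qa and C1qb, which encode chains of the starter C1q, changed by 0.30 ± 0.12 (FDR = 0.0469) and 0.32 ± 0.13 (FDR = 0.0343). In all 9 of 18 complement genes rose (50%) and 5 fell (27.8%) at an FDR below 0.05, with a median of 0.19. Of all genes 24% were higher and 23.9% lower, so the share that fell was near that of all genes. With the covariate 1 rose and 7 fell, with a median of -0.25.

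The following genes, picked after their values were seen, fell past 2-fold. Retnla, a gene of alternatively activated macrophages, had 10.1, 37.1 and 53.6 CPM at P15 and 0.757, 2.34 and 4.7 CPM at 8 weeks (-4.00 ± 0.26, FDR = 8.63e-13). All adult mice were below all P15 mice, and its neural slope was -0.30. Eln, elastin, changed by -4.05 ± 0.36, Col3a1 by -3.01 ± 0.23, Col1a1 by -2.30 ± 0.21 and Col18a1 by -2.16 ± 0.25, after early changes of 0.05 (FDR = 0.914), -0.86, -0.80 and -1.48 (FDR of 0.00246 or less for the collagen genes). Their neural slopes were 0.53, 0.39, 0.34 and 0.37. Slc4a1 (-3.30 ± 0.25), a membrane protein of red blood cells, fell together with the erythrocyte markers.

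Genes with large rises outside the lists, also picked after their values were seen, are given next. Srgn, the proteoglycan of secretory granules, had 31.6, 43.1 and 62.4 CPM at P6, 17.9, 28.7 and 51.4 CPM at P15 and then 77.7, 118 and 152 CPM in adults (1.92 ± 0.13, FDR = 2.21e-13). Kcnj2, an inward rectifier potassium channel, had 3.88, 12.5 and 16.2 CPM at P15 and 26.5, 53.6 and 61.3 CPM at 8 weeks (2.10 ± 0.16, FDR = 1.59e-11). St8sia6, a sialyltransferase, changed by 2.73 ± 0.28, and Gimap3 by 2.23 ± 0.18. The interleukin 2 receptor chain gene Il2rb changed by 2.22 ± 0.19, the niacin receptor gene Hcar2 by 1.85 ± 0.21, Tnfsf10, which encodes TRAIL, by 1.92 ± 0.17, and the adhesion receptor gene Adgre4 by 2.08 ± 0.21. Il2rb and Gimap3 are genes of lymphocytes, whose markers rose over the same step (0.676 to 1.80 log2 CPM), and the part of lymphocytes in these values was not tested. None of the 8 overlapped between P15 and 8 weeks, and Hcar2 had the highest FDR (3.67e-08).

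Phagocytic and disease-associated genes are a set that is high in early postnatal microglia. Of 38 tested 27 fell at an FDR below 0.05 in the early step and 11 past 2-fold, beside 31.4% of all genes at that FDR, whereas in the late step 15 fell and 8 rose (14 and 2 with the covariate), with a median of -0.15, beside 24% of all genes higher and 23.9% lower. Spp1, osteopontin, had a mean of 1055 ± 299 CPM (n = 10) in P6 mice, then 8.62 ± 2.76 CPM (n = 12) and in adults 10.2 ± 3.28 CPM (n = 12) (late FDR = 0.312). Lpl, lipoprotein lipase, changed by -0.79 ± 0.12 (FDR = 2.01e-06) after -2.69, and Igf1, a growth factor, by -1.07 ± 0.16 (FDR = 3.14e-06) after -1.92. Apoe, the main lipid carrier of the brain, changed by -0.69 ± 0.12 (FDR = 3.15e-05). Fabp5 (-1.67 ± 0.22) and Fabp3 (-1.73 ± 0.20), fatty acid binding proteins, fell past 2-fold. Fabp3 was no longer past 2-fold with the neural covariate (-0.80, FDR = 0.0114) or with limma-voom. Without P15 male 1 Fabp5 was no longer past 2-fold (-1.44), and with the covariate its value was -0.26 (FDR = 0.418) at a neural slope of 0.66. It was not past 2-fold with limma-voom or DESeq2 either.

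Ribosomal and respiratory genes were lower by small amounts. Of 82 ribosomal protein genes, whose pseudogenes can share reads, 76 fell and none rose at an FDR below 0.05, none past 2-fold, with a median of -0.50. Rplp0 had 652, 1199 and 1615 CPM at P15 and 481, 569 and 1091 CPM at 8 weeks (-0.88 ± 0.11, FDR = 2.59e-07). With the covariate 78 fell, with a median of -0.89. Nuclear genes of oxidative phosphorylation fell in 57 of 79 and rose in 3, with a median of -0.35, for example Atp5b (-0.47 ± 0.10, FDR = 0.000194), and 13 fell with the covariate. The 11 mitochondrial genes of the same complexes had a median of 0.27, with 3 higher (27.3%, near the 24% of all genes) and none lower. Without P15 male 1 their median was 0.18, with 2 higher. Cholesterol synthesis genes fell in 19 of 27 with a median of -0.60. Hmgcs1, an early enzyme of the pathway, changed by -0.67 ± 0.15 (FDR = 0.000437), and its value was 0.29 (FDR = 0.107) with the covariate. With the covariate none of the 27 fell and 6 rose. Apoc1, an apolipoprotein, changed by -1.86 ± 0.18 (FDR = 1.84e-09), and by -1.56 with the covariate, no longer past 2-fold.

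The remaining lists had members in both directions. Lysosomal genes rose in 11 and fell in 8 of 49, with a median of 0.093, but rose in none and fell in 27 with the neural covariate. Actin and cytoskeleton genes fell in 20 and rose in 4 of 40 (25 and 3 with the covariate), and Stmn1, a microtubule-destabilising protein, fell past 2-fold (-1.83 ± 0.16, FDR = 2.34e-10) but not with the covariate (-0.84). Polycomb and DNA methylation genes rose in 9 and fell in 14 of 34 (3 and 11 with the covariate). Circadian clock genes rose in 6 and fell in 5 of 21 (10 and 4), glucocorticoid-responsive genes in 6 and 6 of 23 (8 and 4), with Hif3a alone past 2-fold, purinergic receptor genes in 4 and 3 of 16 (5 and 4), and cholesterol efflux genes in 3 and 3 of 16 (3 and 7). These counts are at an FDR below 0.05 and are read against the 24% higher and 23.9% lower of all genes.

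**Figure D5:**
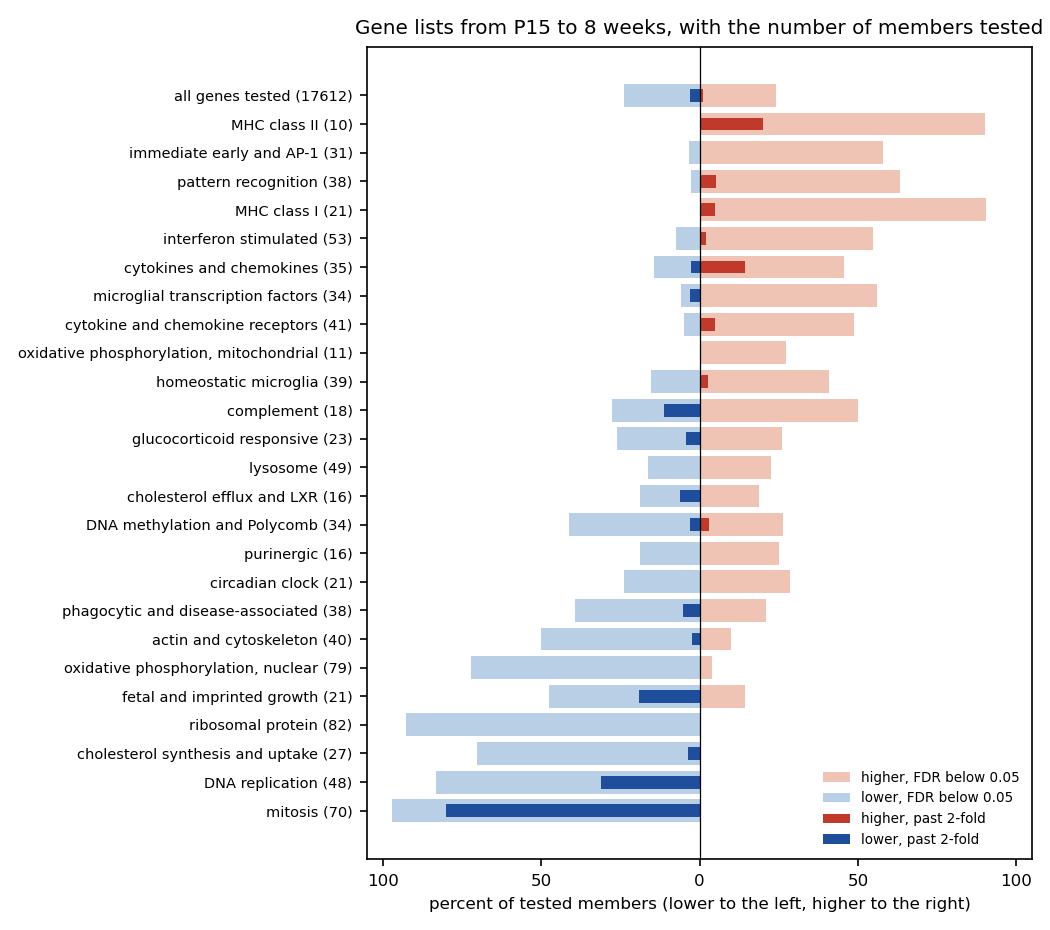
Share of the tested members of each gene list that were higher (right) or lower (left) at 8 weeks than at P15, at an FDR below 0.05 (pale) and past 2-fold (dark), with all genes tested at the top. Mitosis, DNA replication, cholesterol synthesis and ribosomal protein genes lie on the lower side, and both MHC lists on the higher side, before any covariate.

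Without P15 male 1, 6 members of the lists lost their call past 2-fold, namely Upk1b, Phf11b, H2-Q7, Casp4, Fabp5 and the replication gene Cdc45. Others gained one, among them Fosl1, which was higher, and the chemokine receptor gene Ccr1 and the mitosis gene Sgo2a, which were lower. Of the mitosis genes 57 then fell past 2-fold and of the DNA replication genes 14, and 5 cytokine genes and 2 MHC class II genes rose past 2-fold.

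The step was compared between sexes in the same fit. No gene passed an FDR of 0.05 for a difference between males and females in the change from P15 to 8 weeks (0% of 17612, edgeR quasi-likelihood test), with a smallest FDR of 0.351. At an unadjusted p below 0.05 there were 601 genes, 616 by limma-voom and 737 by DESeq2, and at an FDR of 0.05 DESeq2 called 2. These were Ticrr and the neutrophil chemokine receptor gene Cxcr2, named after their values were seen (DESeq2 FDR = 0.0195 for both). Ticrr fell less in males, by 1.53 on the log2 scale. Its mean scaled counts went from 104 to 9.98 in females and from 77.4 to 21.3 in males. Cxcr2 rose more in males, by 1.59, with 73.6 to 86.9 in females and 68.6 to 244 in males. Neutrophil markers at 8 weeks were at 1.60 to 2.71 log2 CPM in females and 3.23 to 4.03 in males. Their part in the value of Cxcr2 was not tested. A gene that misses this threshold may still differ between sexes.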

How the data were processed

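RNA of CD45+ cells captured from whole mouse brain was sequenced in 1 directional library per mouse. Per the study's methods the authors mapped reads to GRCm38 with STAR and counted them per gene with featureCounts in reverse-stranded mode. The deposited values are raw counts per gene and library, with no normalization. The annotation release is not given in the sources used here. Gene names and positions came from an annotation of the same build, in which 260 of the 55401 identifiers had no name.

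The members and gene lists were chosen with earlier results of these data known. A gene was tested if 5 or more of the 34 mice reached 0.5 CPM. Counts were scaled by TMM and fitted with edgeR 4.0.16 in R 4.3.3 (robust quasi-likelihood) to 6 means of age and sex, and changes were averaged over the sexes. Calls past 2-fold came from glmTreat and the FDR of single genes from glmQLFTest, both adjusted by Benjamini-Hochberg over all genes tested. Libraries at P15 and 8 weeks held 23316107 to 38965078 counts in genes, with a median of 30557664.5. The floor of 3 counts covers counting error only. None of the 60 pairs of libraries within the P15 and 8-week groups agreed within sampling noise, and pairs of P6 libraries were not checked.

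Genes were named by a rule. It took up to 6 protein-coding genes per class with the largest late change, a mean of at least 5 CPM at the higher age and no overlap between P15 and 8 weeks. It also took the called and the most abundant uncalled members of each list. Genes picked after their values were seen are marked in the text. Alternatives used DESeq2 1.42.0, limma 3.58.1, other filters, scalings and thresholds, all 35 mice, single mice left out, the replicate number as a block and the neural marker level as a covariate. The scripts were tested on simulated data. Genes of the Y chromosome and of X inactivation were not described. Some genes that the rule names are not reported here.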

Additional observations from a re-analysis of the deposited data

Results flagged for a closer look

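In groups of 6 mice of 1 age and sex, 164 groups of class genes and marker lists were searched for a mouse far from the others, and 9 were found. Chance gives about 1 in 20, or 8.2 of the 164. P15 male 1 was the mouse in 5 of them. It had the lowest level of Tnfsf13b among the P15 males, at 0.506 CPM against 2.65 to 3.92 CPM, and of Csmd3, at 2.77 CPM against 10.1 to 12.2 CPM. It had the highest level of Barhl1, at 35.04 CPM against 1.27 to 11.4 CPM, of Mfap4, at 29.2 CPM against 2.46 to 10.2 CPM, and of Bmp1, at 131 CPM against 49.0 to 71.2 CPM.

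The other mice far from their group differed from gene to gene. P15 female 4 had 3.27 CPM of Tnfsf13b, against 0.989 to 1.81 CPM in the other P15 females. At 8 weeks, female 6 had 3.51 CPM of Epor, against 5.02 to 5.61 CPM, and female 5 had 5.97 CPM of Slc43a1, against 3.92 to 4.54 CPM. Male 4 of the same age had 17.0 CPM of Smim10l2a, against 10.3 to 12.7 CPM. The genes concerned had been named only where P15 and 8 weeks did not overlap, so the gap between these ages was fixed by the naming rule.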

How the results depend on the processing

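In the main fit 211 genes were higher and 540 lower at 8 weeks. Requiring at least 10 counts in every mouse gave 66 higher and 240 lower, with 13 continued rises, 119 continued falls, 1 fall then rise and 9 rises then falls, since fewer genes were tested. The neural covariate gave 378 higher and 207 lower, with 144 and 116 continued, 14 late falls and 6 rises then falls. limma-voom with TREAT gave 137 higher and 261 lower, with 16 and 157 continued, 3 late rises, 2 late falls and 9 rises then falls. DESeq2 with the same threshold gave 132 higher, 19 continued rises, 5 late rises, 9 rises then falls and 2 genes for the sex difference. No fold threshold for the late step gave 4221 higher and 4213 lower, with 345 and 613 continued, 1289 late rises, 1047 late falls, 23 falls then rises and 124 rises then falls. No fold threshold for the early step gave 100 and 411 continued, 25 falls then rises and 47 rises then falls. An early interval within 2-fold gave 48 late rises and 51 late falls. Without a filter on low counts there were 7 late rises, and with all 35 mice 13 rises then falls. Apart from the settings whose construction shows it, the cause was not tested.

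Leaving out single mice gave 175 to 240 genes higher and 474 to 630 lower. These were 4 P6 females, 12 P15 mice and 12 8-week mice, and the P15 and 8-week ones were added after seeing the data. P6 males were not left out, so the ranges of the classes do not cover them. The continued rises ranged from 32 to 47 and falls from 250 to 280, the late rises from 7 to 16 and falls from 5 to 8, the falls then rises from 2 to 3 and the rises then falls from 15 to 24. Late rises were 7 without P15 female 1 and without 8 weeks female 3. The sex difference stayed at 0 genes. Of the calls past 2-fold of 64 named genes, 6 were lost for 1 or more of the 28 mice left out in turn (H2-Q7, Phf11b, Casp4, Upk1b, Fabp5 and Il18r1), 34 with the neural covariate, 24 with limma-voom and 11 with DESeq2. At an FDR of 0.05 without the fold threshold, 2469 of 2475 recomputed values of these genes kept their direction and side. The other 6, all with the neural covariate, lost the FDR of 0.05, with Barhl1, Insm1, Il18r1, Fabp5 and Mest among them.

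The replicate numbers did not pair the mice: over 12 pairs the correlations of deviations ran from -0.258 to 0.278, 5 were above 0.1, and 1 pair was best with its own number. With the replicate block there were 212 genes higher and 503 lower, 35 and 256 continued, 14 late rises, 8 late falls, 3 falls then rises, 17 rises then falls and 0 genes for the sex difference. Depth limits genes at a few counts, such as Cfb and H19 at 8 weeks.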
